A study of Mus musculus with 69 samples.

Results

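A set of 10 genes that injured or regenerating kidney tubules are known for, Lcn2, Havcr1, Vcam1, Spp1, Clu, Krt20, Krt18, Krt19, Sox9 and Cdkn1a, was followed across young, nephritic and remission kidneys of the NZB/W lupus mouse. The genes were taken by symbol, and all 10 of 10 were found among the 24523 symbols with counts. RNA came from perfused whole kidneys of NZB/W mice, which are F1 hybrids prone to a lupus-like glomerulonephritis without any induction. The 30 young mice were 12 weeks old and untreated. The 27 nephritic mice were 30 to 45 weeks old, untreated, and were harvested 2 to 3 weeks after proteinuria above 300 mg/dl began, before end-stage renal failure. The 8 remission mice were 36 to 50 weeks old: at new onset of proteinuria they had received 1 dose of cyclophosphamide (50 mg/kg) and 6 doses of CTLA4Ig (200 µg) with anti-CD40L (250 µg) over 2 weeks, and their kidneys were taken 8 weeks later with proteinuria of at most 30 mg/dl. Mice were harvested by zeitgeber time (ZT, hours after lights on). Young mice numbered 7, 4, 4, 7, 4 and 4 at ZT0, 4, 8, 12, 16 and 20, nephritic mice 7, 4, 4, 6, 3 and 3, and remission mice 4 at ZT0 and 4 at ZT12. Age, disease and, for remission, treatment therefore differ together between the groups, and their parts cannot be told apart.

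A tubule cell that is damaged loses its specialised transport programme and turns on a programme of wound response. The injured proximal tubule is known for the phosphatidylserine receptor KIM-1 (Havcr1), the iron-siderophore carrier NGAL (Lcn2) and the adhesion molecule VCAM-1, and it takes up simple-epithelium keratins, the matrix protein osteopontin (Spp1) and the chaperone clusterin (Clu). SOX9 is a transcription factor of regenerating tubule cells, and p21 (Cdkn1a) is an inhibitor of cyclin-dependent kinases that holds cells out of the cycle. KIM-1 and NGAL proteins are measured in urine as markers of kidney injury. In a whole kidney, more cells of a type and more RNA of a gene per cell cannot be told apart.

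In GRCm38, the assembly of the mm10 build named in the submitters' processing notes, Lcn2 lies on chromosome 2 (32384637 to 32387739, minus strand), Vcam1 on chromosome 3 (116110020 to 116129688, minus), Spp1 on chromosome 5 (104435111 to 104441053, plus), Clu on chromosome 14 (65968483 to 65981548, plus), Krt18 on chromosome 15 (102028216 to 102032026, plus) and Cdkn1a on chromosome 17 (29090979 to 29100722, plus). Chromosome 11 holds Havcr1 (46739822 to 46779578, plus), Sox9 (112782210 to 112787757, plus) and the 2 type I keratins Krt20 (99428385 to 99438153, minus) and Krt19 (100140810 to 100145926, minus). The counts were of reads on exons and splice junctions. In the GENCODE M21 annotation, exons of 3 members overlap another transcript: Vcam1 over 61 bases (an antisense RNA), Spp1 over 309 bases (same strand) and Cdkn1a over 273 bases (opposite strand). None of these 3 transcripts has a row in the count tables.

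RefSeq promoter entries for GRCm38.p6 matched 6 of the 10 members, at 10 starts. The 250 bases before the first listed start are printed for 4 members, Lcn2, Havcr1 and Spp1 because their RNAs were the most tightly linked between nephritic mice, and Krt20 because its RNA changed most after Lcn2. The Havcr1 window lies inside the span given above for that gene, so its listed start is downstream of the gene's first base. Both strands of all 10 starts were searched for 4 motifs: a kappaB-like motif (GGG and TTCC with 3 bases between them), an AP-1 motif (TGANTCA), a STAT motif (TTCNNNGAA) and a TATA box (TATAAA). Capitals mark the motif matches, each reads 5′ to 3′ on the gene's strand and the last base lies next to the start.
Lcn2 (chr2:32387740-32387989, minus strand): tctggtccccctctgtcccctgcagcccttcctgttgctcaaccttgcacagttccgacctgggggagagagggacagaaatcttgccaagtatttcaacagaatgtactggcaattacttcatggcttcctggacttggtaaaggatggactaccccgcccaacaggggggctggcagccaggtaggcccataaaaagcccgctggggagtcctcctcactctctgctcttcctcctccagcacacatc
Havcr1 (chr11:46739973-46740222, plus strand): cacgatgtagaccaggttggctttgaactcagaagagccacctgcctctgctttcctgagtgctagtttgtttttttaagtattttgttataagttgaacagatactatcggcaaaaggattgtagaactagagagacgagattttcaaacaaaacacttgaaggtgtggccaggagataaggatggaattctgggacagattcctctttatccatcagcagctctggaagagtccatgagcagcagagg
Spp1 (chr5:104434861-104435110, plus strand): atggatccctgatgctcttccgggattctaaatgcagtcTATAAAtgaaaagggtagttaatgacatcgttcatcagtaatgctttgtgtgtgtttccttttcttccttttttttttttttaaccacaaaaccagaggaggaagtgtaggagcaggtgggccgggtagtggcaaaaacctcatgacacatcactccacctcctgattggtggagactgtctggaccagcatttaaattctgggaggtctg
Krt20 (chr11:99438154-99438403, minus strand): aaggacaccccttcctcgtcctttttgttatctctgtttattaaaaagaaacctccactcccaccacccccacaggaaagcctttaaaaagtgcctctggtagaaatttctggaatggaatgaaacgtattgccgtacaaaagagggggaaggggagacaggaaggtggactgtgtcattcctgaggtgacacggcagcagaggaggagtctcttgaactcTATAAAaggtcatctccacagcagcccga
Krt20 held a TATA box from base -29 to -24, and Spp1 held the same letters farther away, from -211 to -206. These were the 2 matches at the 10 starts. Over 32841 mouse promoter windows of the same length, 12.4% held a TATA box, 4.65% the kappaB-like motif, 6.75% the AP-1 motif and 7.02% the STAT motif. A match describes letters in the window and is not a measured binding site.

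Original libraries held 25257530 to 48075977 counted reads in young and nephritic mice and 13311278 to 21849912 in remission mice. No label gives the sequencing run of a library, and the study names 2 RNASeq sets, to which mice were assigned here from the prefixes of their titles and the study's sample list. By that assignment, Set 1 supplied 6 young and 5 nephritic mice, all at ZT0 or ZT12. For 4 mice (2 young, 2 nephritic) there is also a repeat library, and the column headings of these repeats share 1 numbering with those of the remission libraries. The repeat labelled RX11RU (nephritic) was nearer to the original of another nephritic mouse, RX11LU (Pearson r = 0.9908 over log2 values of 17587 genes), than to its own original (r = 0.9781). Its Lcn2 was 90.03 CPM (the count scaled to the size of its library), against 94.1 in RX11LU and 50.7 in RX11RU, and the repeats entered no result below except where named. The tissue label held: the summed level of 16 proximal tubule markers was 31000 to 36533 CPM in young, 5596 to 31027 in nephritic and 22345 to 30671 in remission kidneys.

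All 10 genes were higher in nephritic than in young kidneys. The rise was largest for Lcn2 (30.8-fold), Krt20 (13.2-fold) and Vcam1 (8.25-fold), reached about 4-fold for Havcr1 (4.09-fold) and Spp1 (4.03-fold), and was smallest for Krt19 (1.99-fold) and Krt18 (1.85-fold). Of all 17521 genes tested, 28.1% were higher and 33.9% lower in nephritic kidneys at an adjusted p of at most 0.05 (62.1% in either direction), so a call alone is not rare here. The median log2 difference was 1.78 over the members and -0.0258 over all genes. The test was edgeR's quasi-likelihood test with time point and sequencing set as covariates and Benjamini-Hochberg adjustment over all genes. The size of the rise depended on the tool: limma, on log2 CPM, gave log2 differences of 4.07 for Lcn2, 2.77 for Krt20 and 1.41 for Havcr1, against 4.95, 3.73 and 2.03 here.

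**Figure D1:**
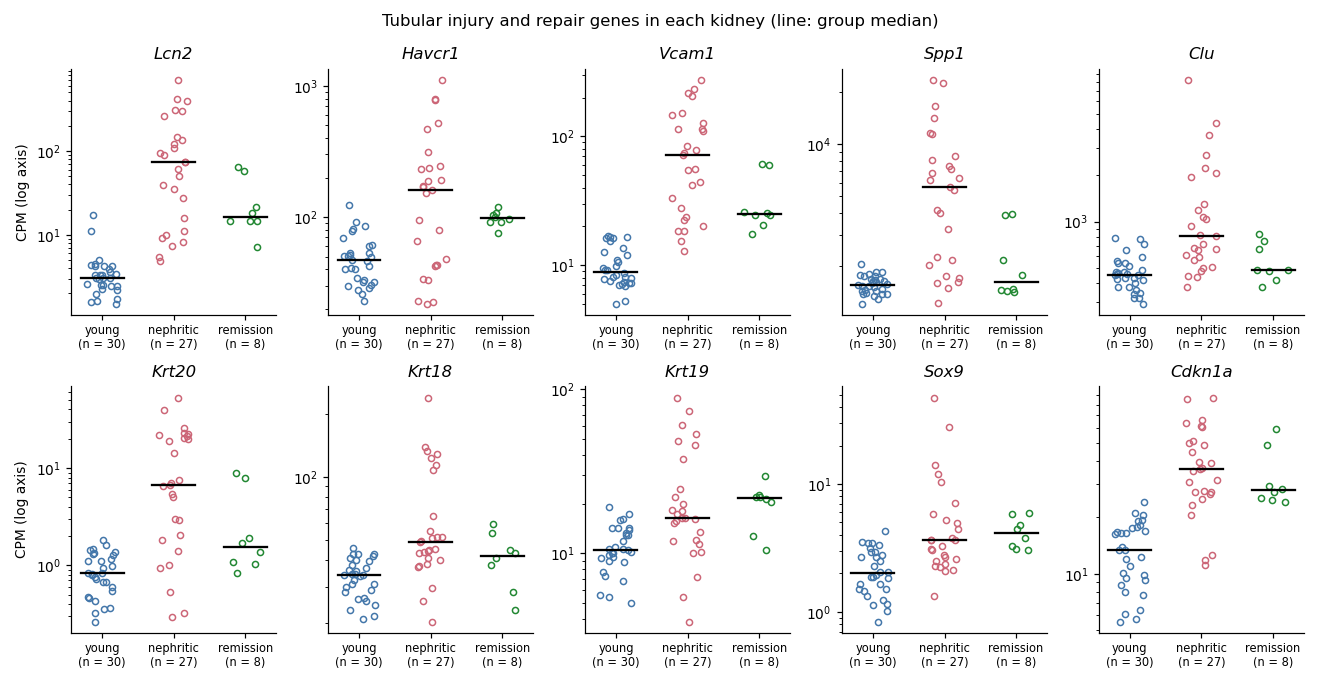
Expression of the 10 genes in each original library, in CPM on a log axis that differs between panels, for 30 young, 27 nephritic and 8 remission mice; the black line is the group median. Nephritic Lcn2 runs from 4.85 to 709 CPM, while the 30 young mice lie between 1.51 and 17.2.

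Among the secreted and surface markers, Lcn2 ranged in young mice from 1.51 to 17.2 CPM with a median of 3.04, and in nephritic mice from 4.85 (RX90) to 709 (CRS60) with a median of 73.8. The groups overlapped: 19 of 27 nephritic mice were above the highest young mouse and 8 lay inside the young range, but every nephritic mouse was above the young median. The log2 difference was 4.95 ± 0.43 (SE, adjusted p = 2.2e-14), the 30th largest of all genes tested.

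Havcr1 ran from 23.03 to 125 CPM in young mice (median 47.0) and from 21.97 (RX8LL) to 1111 (RX12RU) in nephritic mice (median 160). Here the overlap was wide, with 15 nephritic mice above the young range, 10 inside it and 2 below it. The log2 difference was 2.03 ± 0.30 (adjusted p = 8.0e-08). Young mice of Set 1 had 69.3 to 125 CPM and those of Set 2 had 23.03 to 61.4, ranges that did not overlap, so the young ceiling was set by Set 1. Within Set 2 alone the difference was 1.94 ± 0.33 (adjusted p = 4.8e-06).

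Vcam1, which binds leukocytes through the integrin α4β1, showed the least overlap. It lay between 5.02 and 16.9 CPM in young mice (median 8.89) and between 12.8 (RX7LU) and 275 (RX12RU) in nephritic mice (median 71.5). Of 27 nephritic mice, 25 were above every young mouse. Its log2 difference was 3.05 ± 0.24 (adjusted p = 9.3e-16).

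Spp1, a secreted ligand of integrins and CD44, was an abundant RNA in healthy kidneys and the steadiest of the 10 in young mice, at 1207 to 2051 CPM (median 1554). Nephritic kidneys ranged from 1214 (RX8LL) to 23517 (CRS60) with a median of 5700, and at its highest Spp1 alone took 2.6% of a nephritic library, against 0.189% at most in young mice. In 20 of 27 nephritic mice it exceeded the young range. Its log2 difference was 2.01 ± 0.23 (adjusted p = 2.1e-10).

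Clu, a secreted chaperone, had a median of 453 CPM in young mice (294.5 to 777.5) and 807 in nephritic mice (378 in RX10RL to 8289 in CRS60). About equal numbers of nephritic mice lay above the young range (14) and inside it (13). The log2 difference was 1.34 ± 0.23 (adjusted p = 2.2e-06).

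Among the keratins, Krt20, in healthy tissue a keratin of gut and urothelium, was scarce in young kidneys at 0.265 to 1.83 CPM (median 0.828), which is 7 to 56 reads a library. Nephritic mice had 0.295 (RX7LU) to 52.9 CPM (CRS60), with a median of 6.64, and 20 of 27 were above the young range. On the log2 scale the difference was 3.73 ± 0.37 (adjusted p = 1.8e-12). Its range was the widest of the 10 genes, with a highest nephritic value 179 times the lowest.

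The simple-epithelium keratins Krt18 and Krt19 were already present in young kidneys and rose less. Young values of Krt18 were 20.96 to 45.5 CPM (median 34.0) and nephritic values 20.4 (RX12LL) to 239 (CRS60, median 49.1), with 14 of 27 nephritic mice above the young range. Krt19 had 4.96 to 19.1 CPM in young (median 10.6) and 3.84 (RX12LL) to 88.9 (CRS60) in nephritic mice (median 16.4), with 10 above the young range, 16 inside it and 1 below it. The log2 differences were 0.88 ± 0.17 for Krt18 (adjusted p = 1.6e-05) and 0.99 ± 0.19 for Krt19 (adjusted p = 1.8e-05). Within Set 2 alone the value for Krt18 was 0.57 ± 0.15 (adjusted p = 0.0015).

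The transcription factor Sox9 was low in all groups. It had 0.840 to 4.29 CPM in young mice (median 2.00) and 1.34 (RX12LL) to 47.4 (CRS60) in nephritic mice (median 3.62). In 10 of 27 nephritic mice it was above the young range, and in 26 above the young median. On the log2 scale it differed by 1.38 ± 0.24 (adjusted p = 2.7e-06).

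Cdkn1a differed from the others in the form of its rise. It had 5.57 to 24.1 CPM in young mice (median 13.4) and 11.2 (RX7LU) to 87.1 (RX10LU) in nephritic mice (median 36.4), and 22 of 27 nephritic mice were above the young range. The log2 difference of 1.55 ± 0.12 was smaller than that of Havcr1, yet its adjusted p, 1.8e-16, was the lowest of the 10 genes, and its standard error was the smallest.

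**Figure D2:**
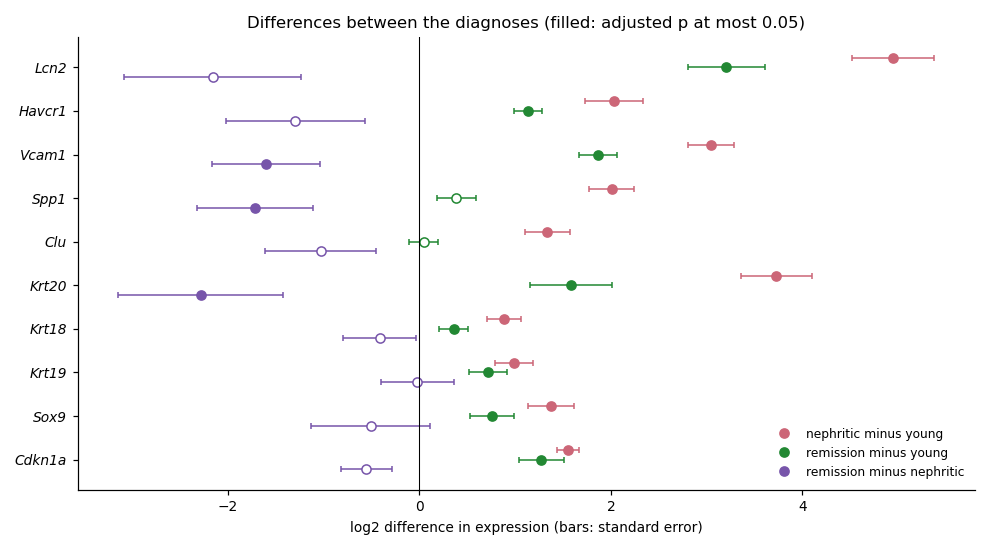
Log2 differences between the diagnoses for the 10 genes, with standard errors as bars; filled points have an adjusted p of at most 0.05 in edgeR's test and open points do not. All 10 nephritic minus young points are filled, 8 remission minus young points are filled, and 3 remission minus nephritic points are filled.

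The spread between nephritic mice was itself large. On the log2 scale the standard deviation over 27 nephritic mice was 2.12 for Lcn2 and 2.09 for Krt20, 1.68 for Havcr1, 1.33 for Vcam1 and 1.28 for Spp1. It was 1.18 for Sox9, 1.14 for Clu, 1.12 for Krt19, 0.847 for Krt18 and 0.790 for Cdkn1a. The median over 17587 genes was 0.333, and the members sat above 90.4% (Cdkn1a) to 99.9% (Lcn2 and Krt20) of genes. All 10 spread more in nephritic than in young mice, as did 70.9% of all genes. The ratio of the standard deviations was largest for Spp1 (7.33), 1.3 for Cdkn1a and 2.0 to 3.14 for the other 8, and its median over all genes was 1.19.

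Mouse by mouse, the nephritic group held kidneys with all and with none of the 10 genes above the young range. In 8 of 27 mice (CRS60, CRS6LU, HIL5LL, HIL5RU, RX10LU, RX110, RX12RU and RX7LL) every member exceeded the highest young value. Of the other 19, 13 mice had 4 to 9 members above the young range, 5 had 1 or 2, and RX7LU had 0. In the 5 mice with 1 or 2 such members, Vcam1 and Cdkn1a were the members concerned. RX90 had Cdkn1a above the young range, RX100 had Vcam1, and CRS6LL, RX11LL and RX12LL had both. RX7LU and RX100 were harvested at ZT8, when young Cdkn1a was at its lowest, and all 4 nephritic mice of that time (11.2 to 35.2 CPM) were above the 4 young ones (5.57 to 6.41). Mouse CRS60 held the highest value of 7 members, and the lowest values were shared among RX90, RX8LL, RX7LU, RX12LL and RX10RL. Of the 5 Set 1 nephritic mice, 4 were among the 8. How many of all genes exceeded the highest young value in each mouse was not counted, so these numbers have no background.

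**Figure D3:**
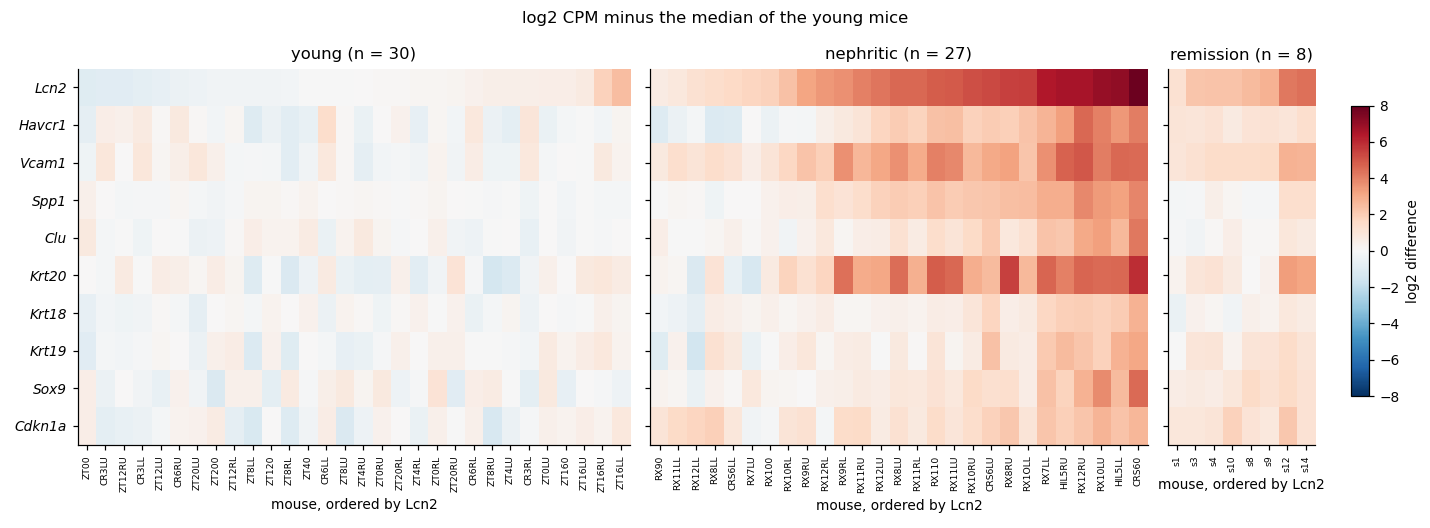
Log2 CPM of the 10 genes minus the median of the young mice, as colour, for every original library, with mice of each group ordered from left to right by Lcn2. In the 5 nephritic mice with the least Lcn2, at the left of their panel, Vcam1 and Cdkn1a are above the young median and Havcr1 is below it, and at the right all 10 genes are raised.

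The genes rose and fell together between nephritic mice. Over 27 mice, Lcn2 correlated with Spp1 (Pearson r = 0.98, Spearman rho = 0.98) and with Havcr1 (r = 0.96, rho = 0.96), and Havcr1 with Spp1 (r = 0.98, rho = 0.97). The other close pairs were Sox9 with Clu (r = 0.95, rho = 0.88), Clu with Krt18 (r = 0.94, rho = 0.88), Vcam1 with Krt20 (r = 0.92, rho = 0.91) and Krt19 with Krt18 (r = 0.91, rho = 0.77). The loosest member was Cdkn1a, whose r to the other 9 genes was 0.57 to 0.69.

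All 45 of 45 pairs had an adjusted p of at most 0.05 in a two-sided permutation test over mice (100000 permutations). The share of all pairs of genes that would pass this test was not counted, so the 45 have no background. The adjusted p was 1.67e-05 for each of the 7 pairs named, where the unadjusted p was 1e-05, the smallest these permutations can give, for both r and rho. It was 0.00174 for the weakest pair, Krt20 with Cdkn1a (r = 0.57, rho = 0.56). The median r over the 45 pairs was 0.81, 0.78 within Set 2, and 0.89 after time point and set means were removed. Without the 2 mice farthest from the median of the first gene of each pair the range was 0.46 to 0.98, and Lcn2 with Havcr1 stayed at 0.96, Lcn2 with Spp1 at 0.98 and Sox9 with Clu at 0.91. The pair Krt18 with Cdkn1a had r = 0.41 within Set 2 and no longer met the threshold there.

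A high correlation with Lcn2 was not particular to the members, and all genes are read from the same 27 libraries. Of 17577 other genes, 19.3% had r of at least 0.5 to Lcn2, 8.56% at least 0.7 and 4.15% at least 0.8. At the other end, 8.64% had r of at most -0.7. Of the 9 other members, 7 had r of at least 0.8, and the lowest r was 0.58. The 5 other genes nearest to Lcn2 were Cxcl17 (r = 0.97), Lif (0.97), Adgra1 (0.96), Cd14 (0.96) and Tnfrsf12a (0.96). Nearest to Havcr1 were Serpina10 (0.97), Tpbg (0.97), Meltf (0.97), Dpysl3 (0.97) and Nipsnap3b (0.96). These were picked for their r over the 27 mice and carry no test.

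In young kidneys the same genes were not linked in this way. The median r over the 45 pairs was -0.04 over 30 young mice, with a range from -0.70 (Vcam1 with Clu) to 0.79 (Clu with Spp1), and 0.02 after time point and set means were removed. Lcn2 with Havcr1 had r = -0.06 and Lcn2 with Spp1 r = -0.34. No test of the difference from nephritic mice was run for single pairs. Young mice also span a smaller range of each gene.

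**Figure D4:**
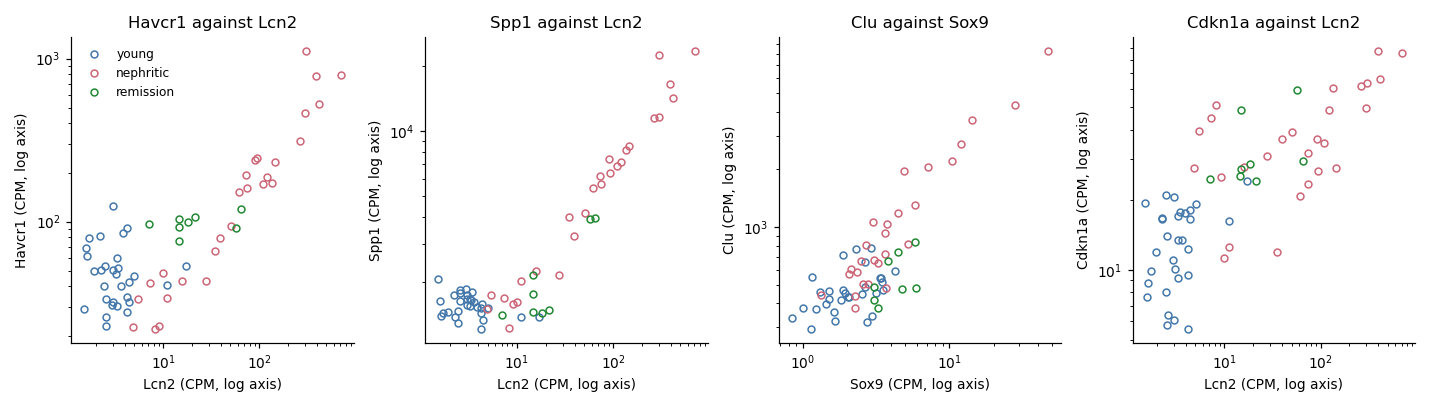
Havcr1, Spp1 and Cdkn1a against Lcn2, and Clu against Sox9, in CPM on log axes, 1 point a mouse, coloured by group. The 27 nephritic mice line up along a diagonal in the first pair of panels (r = 0.96 and 0.98) and scatter more for Cdkn1a (r = 0.58), while young mice form a cloud at the lower left.

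Summed proximal tubule and macrophage markers varied with these genes in opposite directions. Summed proximal tubule markers fell as the members rose: over 27 nephritic mice r was -0.90 for Sox9 (rho = -0.74, adjusted p = 2.5e-05) and -0.60 for Krt20 (rho = -0.75, adjusted p = 0.00108), and the other 8 genes lay between these values. Within Set 2 the range was -0.90 to -0.54. Without the 2 mice farthest from the median marker level it was -0.81 to -0.54. Summed macrophage markers correlated with r from 0.48 (Sox9, rho = 0.58, adjusted p = 0.0118) to 0.76 (Vcam1, rho = 0.75, adjusted p = 4.4e-05), and from 0.46 to 0.73 within Set 2. All 20 of these relations had an adjusted p of at most 0.05 over the 20, in permutation tests that were chosen after the values were seen. How many of all genes correlate as strongly with these sums was not counted, so the 20 have no background. The part of either cell type in the members' rise was not tested.

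Neutrophils are known to make Lcn2 themselves, and urothelium Krt20. The 8 neutrophil markers summed to 0.0642 to 22.3 CPM in young mice (median 0.314) and 0.423 to 2.71 in nephritic mice (median 1.06). Mean levels of single markers in nephritic kidneys ran from 0.0276 CPM (Retnlg) to 0.377 CPM (S100a9), and no marker was at 0 in every library. Their log2 differences from young kidneys had both signs and ranged from -1.29 ± 0.60 for Camp (adjusted p = 0.059) to 1.00 ± 0.60 for Mpo (adjusted p = 0.14). Summed neutrophil markers were 1.68 CPM in CRS60, the mouse with the most Lcn2. The young mouse with 22.3 CPM, ZT8LL, had 2.54 CPM of Lcn2. The 7 urothelium markers summed to 14.9 to 76.4 CPM in young and 9.76 to 104 in nephritic mice (medians 36.4 and 41.3), with 13.9 in CRS60, which had the most Krt20 (52.9 CPM), 63.5 in HIL5LL (21.7 CPM of Krt20) and the highest sum in HIL5RU (14.4 CPM of Krt20). The part of either cell type in the members' levels was not tested.

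Of 38 other genes of tubular injury and repair, 32 were higher in nephritic kidneys and 1 was lower, with a median log2 difference of 1.1. Over all genes tested, 28.1% were higher and 33.9% lower. This list and those below were chosen with earlier results of these data known. The largest rises were those of Timp1, an inhibitor of matrix metalloproteinases (5.19 ± 0.41), the metalloproteinase Mmp7 (4.65 ± 0.36), the EGF-receptor ligand Areg (3.77 ± 0.37) and the monocyte chemokine Ccl2 (3.32 ± 0.23). The 1 that fell was Prom1 (log2 difference -0.26 ± 0.05). The largest adjusted p of these 5 was 1.7e-05. Mmp7 and Areg were near the floor, with mean levels of 0.017 and 0.0187 CPM in young and 0.586 and 0.345 CPM in nephritic kidneys.

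Of 23 p53 targets and cell cycle arrest genes, the circle to which Cdkn1a belongs, 14 were higher and 2 lower, with a median of 0.274. The shares of all genes were 28.1% and 33.9%. The leading gene was Cdkn2a, which encodes p16 and ARF (3.32 ± 0.34), followed by the TNF receptor superfamily genes Eda2r (1.64 ± 0.18) and Tnfrsf10b (0.84 ± 0.10) and the pro-apoptotic Bbc3 (1.04 ± 0.16). Ccng1 and Perp fell by 0.13 each on the log2 scale. Cdkn2a was near the floor, with mean levels of 0.0415 CPM in young and 0.568 CPM in nephritic kidneys.

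Of 18 receptors and partners of the members, 14 were higher and 2 lower (28.1% and 33.9% of all genes), with a median of 0.53. The osteopontin receptor Cd44 rose by 3.07 on the log2 scale and Itga4, a chain of the VCAM-1 receptor, by 2.10. Havcr2 and Timd4, of the same TIM family as Havcr1, rose by 2.05 and 1.85. The endocytic receptors for NGAL went the other way, with Lrp2 (megalin) at -0.94 and Slc22a17 at -0.38. Proximal tubule markers were lower in 16 of 16 cases, where 33.9% of all genes were lower. Among these markers were the transporters Slc7a13 (-0.97) and Slc5a12 (-0.90), Lrp2, and the creatine synthesis enzyme Gatm (-0.87).

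In the main fits, Vcam1 and Krt20 were both lower in remission than in nephritic kidneys and higher than in young ones. The other 8 genes passed at most 1 of these 2 tests. Against young kidneys, both calls were lost in the 2 fits given below with a term for the library series (adjusted p up to 0.29 for Vcam1 and 0.65 for Krt20). Against nephritic kidneys, Vcam1 kept its call in 12 and Krt20 in 8 of 21 fits that left out 1 mouse. Remission was compared with mice of the same time points, ZT0 and ZT12, 14 young and 13 nephritic. The 2 comparisons with remission share the remission mice, and each shares its controls with the comparison of nephritic and young kidneys, so their values are given side by side and not as separate evidence. For the remission libraries, the study's sample list puts the 7 remission mice it names in Set 2. Because their headings share a numbering with the 4 repeats alone, a difference between that series of libraries and the originals can be estimated from the 4 repeats only.

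Against young kidneys, 8 of 10 genes were still higher in remission, where 26% of 15982 genes tested were higher and 25.6% lower (51.7% in either direction). Lcn2 in the remission mice was 7.09 (s1), 14.7 (s3), 14.8 (s4), 14.8 (s10), 18.3 (s8), 21.4 (s9), 57.1 (s12) and 65.1 CPM (s14), each above all 14 young mice of the same times (1.51 to 4.40), and the log2 difference was 3.21 ± 0.41 (9.23-fold, adjusted p = 1.7e-06). Vcam1 ran from 17.5 (s1) to 60.4 (s12) with a median of 25.0, without overlap with any of the 30 young mice (1.87 ± 0.20, adjusted p = 1.8e-07). Cdkn1a ran from 24.1 (s9) to 59.1 (s12) with a median of 27.9, also above every young mouse of the same times, whose highest value was 20.6 (1.27 ± 0.23, adjusted p = 9.8e-05).

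Havcr1 was close to uniform in remission, from 76.3 (s10) to 120 CPM (s14), a 1.57-fold range. All 8 mice were above the young median but inside the whole young range, and all 8 were above the 24 young mice of Set 2, the set to which the study's list assigns remission mice. The log2 difference was 1.13 ± 0.14 (2.19-fold, adjusted p = 1.8e-06). Krt20 had 0.830 (s8) to 8.84 CPM (s12) with 4 of 8 above the young mice of the same times (1.59 ± 0.43, adjusted p = 0.0037). The differences were 0.76 ± 0.23 for Sox9 (adjusted p = 0.0085), 0.72 ± 0.20 for Krt19 (adjusted p = 0.0043) and 0.36 ± 0.15 for Krt18 (adjusted p = 0.046). The call for Krt18 held in 4 of 9 alternatives, and it was lost when any of s12, s14, s3 and s8 was left out (adjusted p up to 0.11).

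Clu and Spp1 did not pass the test against young kidneys. Clu had 378 to 833 CPM in remission, and the difference was 0.05 ± 0.15 (adjusted p = 0.82). Spp1 had 1400.5 to 3958.5 CPM with a median of 1612, close to the young median of 1554, and the difference was 0.39 ± 0.20 (adjusted p = 0.12). Its 8 values were uneven: s12 and s14 had 3922 and 3958.5 CPM, s4 had 2159, and the other 5 lay inside the young range.

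Against nephritic kidneys, 3 of 10 genes were lower in remission, where 16.5% of 16344 genes tested were lower and 14.6% higher (31.1% in either direction). These were Vcam1 (-1.60 ± 0.56, adjusted p = 0.036), Spp1 (-1.72 ± 0.60, adjusted p = 0.036) and Krt20 (-2.28 ± 0.86, adjusted p = 0.049). The estimate for Lcn2 was as large, at -2.16 ± 0.93, but did not pass (adjusted p = 0.082). No remission mouse reached the median of the 13 nephritic mice for Lcn2, Havcr1, Vcam1, Krt20 or Spp1, yet for Lcn2, Havcr1 and Krt20 all 8 lay inside the nephritic range.

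For the other genes the values were -1.30 ± 0.73 for Havcr1 (adjusted p = 0.18), -1.03 ± 0.58 for Clu (adjusted p = 0.18), -0.55 ± 0.27 for Cdkn1a (adjusted p = 0.12), -0.51 ± 0.62 for Sox9 (adjusted p = 0.56) and -0.41 ± 0.38 for Krt18 (adjusted p = 0.43). Krt19 differed least, at -0.02 ± 0.38 (adjusted p = 0.97), and 6 of 8 remission mice were above the nephritic median for it. These calls were close to the threshold: with limma 0 of 10 genes were lower, and leaving out 1 mouse gave 0 to 4. Over all genes, 5103 were called in either direction with limma and 4368 to 5326 when 1 mouse was left out. Each of RX10LU, RX12RU, s1, s10, s3, s4, s8 and s9 left 0 of 10 when it was left out, and RX8RU and RX9RL left 1.

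Both counts differed in fits with a term for that series of libraries. These fits took all libraries at ZT0 and ZT12, so each also held the mice of the third diagnosis. The original and the repeat library of a mouse entered as separate samples, without a term for the mouse. Which of these changes moved the counts was not tested. With the 4 repeat libraries added and a term marking remission and repeat libraries, 6 of 10 genes were lower than in nephritic kidneys and 2 of 10 higher than in young kidneys. Without the RX11RU repeat these became 7 and 1, and the 1 was Cdkn1a (1.30 ± 0.36, adjusted p = 0.016), while Lcn2 was 3.02 ± 1.11 above young (adjusted p = 0.082). In that fit the standard error of Havcr1 against young grew from 0.14 to 0.80. Vcam1 and Krt20 were not called against young in either fit with the term. Over all genes, calls in either direction against nephritic kidneys numbered 4001 with all repeats and 3606 without that of RX11RU, and 5087 in the main fit. Against young kidneys they numbered 2342, 1693 and 8260.

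The other injury genes divided in the same 2 directions. Of 37 tested against young kidneys, 25 were higher and 3 lower in remission, and of 38 tested against nephritic kidneys, 16 were lower and 2 higher. The shares of all genes were 26% higher and 25.6% lower against young, and 16.5% lower and 14.6% higher against nephritic kidneys. Timp1 was 2.78 ± 0.37 above young (adjusted p = 3.1e-06) and differed from nephritic kidneys by -2.28 ± 0.78 on the log2 scale (adjusted p = 0.031), and Ccl2 differed from them by -1.86 ± 0.51 (adjusted p = 0.009). The neutrophil chemokine Cxcl1, named after its values were seen, was also lower than in nephritic kidneys, at -3.14 ± 0.75 (adjusted p = 0.0037), with 0.10 ± 0.43 against young (adjusted p = 0.86). Mmp7 stayed 4.26 ± 0.54 above young (adjusted p = 6e-06) and differed from nephritic kidneys by 0.80 ± 0.48 (adjusted p = 0.21). The arrest gene Cdkn2a likewise stayed 3.18 ± 0.61 above young (adjusted p = 0.00019), with 0.91 ± 0.58 against nephritic kidneys (adjusted p = 0.25). Mean remission levels of both genes were low, at 0.71 CPM for Mmp7 and 0.72 CPM for Cdkn2a.

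Of the 8 remission mice, 2 stood above the other 6. Mice s12 and s14, both at ZT12, had 9 and 8 members above the highest of all 30 young values, among them Lcn2 (57.1 and 65.1 CPM), Krt20 (8.84 and 7.98) and Vcam1 (60.4 and 60.1). The other 6 mice had 2 to 5 such members, and Vcam1 and Cdkn1a were among them in all 6. The share of all genes above the young values was not counted for these mice either. The macrophage, T cell and B cell markers of remission kidneys stayed above young levels: 7 of 7, 5 of 6 and 6 of 6 were higher. Of all genes, 26% were higher in that comparison. Summed macrophage markers were 254 to 847 CPM in remission, 245 to 1780 in nephritic and 92.6 to 231 in young mice. Their part in the members' levels was not tested.

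Several of the genes varied with the time of day in young kidneys. Of the 10 genes, 8 differed between the 6 time points in young mice, where 39.8% of 16521 genes did. Cdkn1a had the clearest pattern (adjusted p = 2.1e-08): its mean fell from 18.2 ± 1.40 CPM (SD, n = 7) at ZT0 to 5.96 ± 0.369 (n = 4) at ZT8 and was 18.99 ± 3.64 (n = 4) at ZT16. The ZT8 and ZT0 values did not overlap, at 5.57 to 6.41 and 16.6 to 20.6 CPM. Sox9 was highest at ZT0 and ZT8 (3.21 ± 0.599 and 3.16 ± 0.346 CPM) and lowest at ZT20 (1.26 ± 0.394, adjusted p = 6.2e-06).

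Krt20 in young mice was lowest at ZT8 (0.376 ± 0.123 CPM) and highest at ZT16 (1.31 ± 0.336, adjusted p = 0.00023). Lcn2 was 2.30 to 3.38 CPM on average at 5 times and 9.47 ± 6.00 (n = 4) at ZT16, where single mice had 4.44 to 17.2 (adjusted p = 0.00023). Clu (adjusted p = 0.0067), Krt19 (0.014), Vcam1 (0.027) and Spp1 (0.032) also passed, while Havcr1 (0.069) and Krt18 (0.26) did not. Without the set covariate Clu (0.055), Spp1 (0.056) and Vcam1 (0.067) no longer passed and Havcr1 did (0.017), and Vcam1 was also lost in Set 2 alone (0.072). Havcr1 passed with DESeq2 as well, and the number of members that passed was 6 to 9 over these alternatives.

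In nephritic kidneys 1 of 10 genes, Cdkn1a, differed between time points (adjusted p = 0.019), where 21.6% of 16872 genes did. Its means were 56.3 ± 23.5 CPM (SD, n = 7) at ZT0, 24.5 ± 3.02 (n = 4) at ZT4, 17.7 ± 11.7 (n = 4) at ZT8 and 46.6 ± 14.8 (n = 6) at ZT12, so ZT8 was again the lowest time. The test of the difference between the 2 time courses called 0 of 10 genes in edgeR, where it called 6.27% of 17521 genes. DESeq2 and limma also called 0, and 2 genes, Krt18 and Cdkn1a, had an unadjusted p under 0.05. A difference in time course was therefore not shown for any of the 10 genes.

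**Figure D5:**
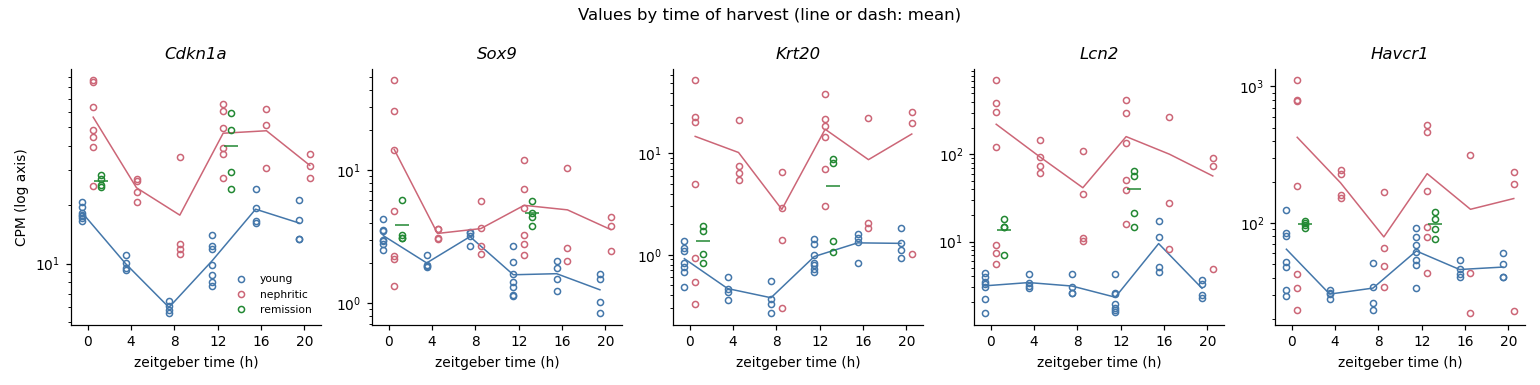
Cdkn1a, Sox9, Krt20, Lcn2 and Havcr1 in CPM on a log axis against zeitgeber time in hours, 1 point a mouse, with lines through the means of young and nephritic mice and dashes for the remission means at ZT0 and ZT12. Young Cdkn1a falls from 18.2 CPM at ZT0 to 5.96 at ZT8, and nephritic Cdkn1a is also lowest at ZT8 (17.7).

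At single time points, all 10 genes had a positive log2 difference between nephritic and young mice at each of the 6 times. The number that passed the test was 10 at ZT0 (20.1% of all genes, 7 against 7 mice), 6 at ZT4 (13.9%, 4 against 4), 2 at ZT8 (2.83%, 4 against 4), 10 at ZT12 (25.8%, 6 against 7), 4 at ZT16 (10.1%, 3 against 4) and 3 at ZT20 (4.56%, 3 against 4). Lcn2 was the member that passed at each of the 6 times, with log2 differences from 3.39 ± 1.05 (ZT16) to 6.06 ± 0.88 (ZT0). Cdkn1a passed at 5 times, ZT20 being the exception (0.93 ± 0.31, adjusted p = 0.061).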

How the data were processed

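RNA-seq of 69 libraries from perfused NZB/W kidneys was read as deposited. The authors counted uniquely aligned reads with at most 2 mismatches on exons and splice junctions, and the deposited values are raw counts per gene symbol (24538 listed, 15 of them empty, 24523 used). The submitters' processing notes name HISAT and mm10, while the methods describe a Burrows-Wheeler aligner. Depth was 13311278 to 48075977 reads per original library, and p-values measure the spread between mice.

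Groups came from the diagnosis and time labels, and the 65 original libraries were compared. The main test was edgeR's quasi-likelihood test (edgeR 4.0.16 in R 4.3.3) with TMM factors, on genes with at least 100 counts over the libraries of a fit, with time point and RNASeq set as covariates and Benjamini-Hochberg adjustment (threshold 0.05). Set 1 comprised mice whose titles begin CR, CRS or HIL. Standard errors are the absolute log2 difference divided by the square root of F. Levels of the members are CPM with TMM factors over 69 libraries, and log2 CPM uses a prior count of 2. Levels and sums of the other lists, also those correlated with the members, are CPM on total counts without TMM factors. These factors ran from 0.917 (CR3LU, young) to 1.211 (HIL5RU, nephritic) and were below 1 in all young libraries, so the scales differ by group. Correlations used 100000 permutations (SciPy 1.17.1). The scripts were tested on simulated data. Genes named were the members; of each related list, up to 4 past the threshold in each direction with the largest change between nephritic and young kidneys and, of cell marker lists, up to 4 with the highest CPM; and the 5 genes nearest by r to Lcn2 and to Havcr1. Cxcl1 and single neutrophil genes were named after their values were seen. The members and lists were chosen with earlier results of these data known. Alternatives were DESeq2 1.42.0, limma 3.58.1, RLE factors, no filter, no set covariate, Set 2 alone, the repeat libraries and leaving out each mouse.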

Additional observations from a re-analysis of the deposited data

Results flagged for a closer look

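Within groups of 4 to 7 mice of 1 diagnosis and time, and in the 8 remission mice together, 130 gene and group combinations were examined for 1 mouse far from the rest by Dixon's criterion, and 7 were found, where chance gives about 1 in 20. In young mice at ZT4, ZT4RU had low Vcam1 (5.29 CPM, against 7.03 to 7.41 in the other mice) and low Krt19 (7.26, against 10.1 to 10.6). At ZT20 the young mouse ZT20LU had low Krt19 (7.71, against 13.8 to 14.3). In remission at ZT0, s8 had high Sox9 (5.92, against 3.06 to 3.27), s4 had high Spp1 (2159, against 1400.5 to 1440.9) and s1 had low Krt19 (10.4, against 20.7 to 22.1). In nephritic mice at ZT8, RX10RU had high Cdkn1a (35.2, against 11.2 to 12.5), and it was the 1 mouse of that time with 9 members above the young range.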

How the results depend on the processing

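All 10 genes stayed higher in nephritic than in young kidneys under the 7 alternatives and in each of 57 fits that left out 1 mouse. Against nephritic kidneys the number of members lower in remission was 3, and it was 0 with limma, 5 without the set covariate, 6 with the repeats added and a term for remission and repeat libraries, 7 with that fit without the RX11RU repeat (chosen after seeing the data), and 0 to 4 when 1 mouse was left out. All genes called there, in either direction, numbered 5087 in the main fit, 5103 with limma and 5850 without the set covariate. They numbered 4001 and 3606 in the 2 fits with the term, and 4368 to 5326 when 1 mouse was left out. Against nephritic kidneys Krt19 turned to 0.22 with limma and ran from -0.17 to 0.26 when 1 mouse was left out, and Sox9 ran from -0.66 to 0.0024. Against young kidneys the number higher in remission was 8, and it was 2 and 1 in the 2 fits with the term and 7 to 8 when 1 mouse was left out. The number of all genes called against young kidneys fell from 8260 to 2342 and 1693 in these 2 fits. Clu, not called, was -0.046 in the fit without the RX11RU repeat and -0.042 to 0.12 when 1 mouse was left out. Genes that varied with time in nephritic mice numbered 3646, against 5646 with DESeq2 and 1994 without the set covariate. Genes with a different time course numbered 1099, against 2186 with DESeq2 and 1715 in Set 2 alone. The cause was not tested. Remission libraries were the shallowest, and the scarcest member, Krt20, had 16 to 187 reads in them. No paired analysis of the groups was possible: by the titles each original library came from a different mouse, and no label links mice of different groups. The replicate numbers used here follow accession order.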

Other observations

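Cell type markers other than those of the proximal tubule moved in ways of their own. Endothelial markers, chosen with earlier results known, were higher in remission than in young kidneys in 6 of 6 cases, among them the adhesion molecule Pecam1 (log2 difference 0.91 ± 0.10, adjusted p = 2.4e-07) and the VEGF receptor Kdr (0.69 ± 0.11, adjusted p = 2.7e-05), and 4 of 6 were higher than in nephritic kidneys (edgeR). The shares of all genes higher in remission were 26% against young and 14.6% against nephritic kidneys. Kdr was lower in nephritic than in young kidneys (-0.65 ± 0.13, adjusted p = 2.6e-05), while Sele, which encodes E-selectin of activated endothelium, was higher (2.00 ± 0.24, adjusted p = 8.6e-10). Their summed level was 173 to 347 CPM in young, 128 to 359 in nephritic and 299 to 450 in remission mice.

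Of 6 markers of the thick limb and distal nephron, 4 were lower in nephritic than in young kidneys, among them Calb1 (-1.06 ± 0.16, adjusted p = 1.7e-07) and Egf (-0.82 ± 0.24, adjusted p = 0.0033). In that comparison 33.9% of all genes were lower and 28.1% higher. In remission Umod, the uromodulin gene of the thick limb, was above young levels (0.82 ± 0.09, adjusted p = 2.7e-07) and Calb1 below them (-0.87 ± 0.15, adjusted p = 4.8e-05). Of 7 urothelium markers, the basal keratins Krt5 (0.84 ± 0.18, adjusted p = 6.7e-05) and Krt14 (1.29 ± 0.22, adjusted p = 1.0e-06) were higher in nephritic kidneys and 4 of the uroplakin genes were lower. The remission values of these markers were not fitted with a term for the library series.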
